A study of Homo sapiens with 4 samples.

Results

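Heterogeneous nuclear ribonucleoproteins (hnRNPs) are RNA-binding proteins that coat nascent transcripts in the nucleus. Expression was examined for 10 of the major hnRNP genes, HNRNPA1, HNRNPA2B1, HNRNPC, HNRNPD, HNRNPDL, HNRNPH1, HNRNPK, HNRNPL, HNRNPM and HNRNPU, out of 60675 genes counted. They were taken by name, and all 10 had enough counts to be tested. The cells were LNCaP, a human prostate cancer line that came from a metastasis in a lymph node and that responds to androgen. All cultures were kept in hormone-depleted medium and received 1 nM R1881, a synthetic androgen, for 72 h, so no library came from cells without androgen. The first group received R1881 + vehicle (2 libraries) and the second R1881 + CPI-455 at 50 µM (2 libraries). CPI-455 is a small molecule that inhibits the KDM5 family of histone H3 lysine 4 demethylases. It was dissolved in DMSO, for which the labels and the study's methods give different final concentrations. The study asked which transcripts change in abundance and in splicing when the inhibitor is added to the androgen. A single cell line, dose and time were sampled, and the study's methods call the libraries biological replicates without saying how they were grown apart, so p-values measure the spread between these libraries.

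The vehicle libraries held 19623553 and 20690819 counts and the CPI-455 libraries 9522920 and 5401588, so the CPI-455 values rest on fewer counts. Log expression over the 17600 genes tested correlated at 0.995 (Pearson, across genes, which are not independent replicates) between the vehicle libraries, at 0.965 between the CPI-455 libraries, and at 0.846 to 0.859 between groups. All 9 markers of luminal LNCaP cells were counted in every library, and 8 of the 9 were lower with CPI-455 while KLK2 was higher (summed CPM, counts scaled to the size of the library, of 957.2 and 882.5 with vehicle against 383.5 and 437.6 with CPI-455). Of 8 markers of basal, immune, stromal, endothelial and neuroendocrine cells, 3 passed 3 counts in every library (CHGA, SYP and COL1A1), from 2 to 4 were at 0 in each library, and the summed level of the 8 was 14.9 and 15.7 CPM with vehicle and 21.6 and 21.0 CPM with CPI-455. These markers did not move together. CHGA was lower with CPI-455 (5.68 and 6.23 CPM with vehicle, 1.80 and 3.17 CPM with CPI-455). COL1A1 was higher (4.97 and 4.03 CPM, then 10.1 and 7.73 CPM). SYP was at 3.93 and 5.31 CPM with vehicle and at 8.77 and 5.95 CPM with CPI-455. COL1A2 had 0 counts in CPI-455 replicate 1 and 15 in replicate 2. The part of these shifts in the hnRNP values was not tested. In bulk libraries fewer cells of a type and less RNA per cell cannot be told apart, and each value below is relative to the rest of its library.

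The hnRNP proteins carry RNA-recognition motifs, KH domains or other RNA-binding regions, and they act in splice site choice, mRNA export, stability and translation. Several bind close to splice sites or in exons and oppose exon inclusion, in contrast to many serine/arginine-rich (SR) splicing factors, and they act on the splicing of many transcripts in prostate cells, the androgen receptor among them. Their own mRNAs are often autoregulated through exons that lead to nonsense-mediated decay, and these exons are counted together with the coding ones in the values used here.

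The 4 members whose mRNA differed by close to 2-fold or more between the groups were HNRNPDL, HNRNPD, HNRNPL and HNRNPK, and stretches before a RefSeq start of these genes are shown because the results turn on their transcripts. Each is RefSeq sequence of GRCh38.p14 from the 250 bases before the RefSeq start furthest upstream, on the strand of the gene, and is limited to bases outside annotated exons. HNRNPDL is read from chr4:82430463-82430561, HNRNPD from chr4:82374000-82374118, HNRNPL from chr19:38852348-38852597 and HNRNPK from chr9:83980632-83980710, all on the reverse strand. The HNRNPD stretch lies inside the span of the gene as counted here, which reaches 82374503, between its exons. Capitals mark the GC box, GGGCGG or its reverse complement CCGCCC.
HNRNPDL: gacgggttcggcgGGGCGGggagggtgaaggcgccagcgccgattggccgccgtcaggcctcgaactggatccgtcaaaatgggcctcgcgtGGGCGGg
HNRNPD: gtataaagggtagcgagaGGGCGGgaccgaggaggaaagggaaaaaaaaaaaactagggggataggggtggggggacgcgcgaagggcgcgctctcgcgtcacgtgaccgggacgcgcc
HNRNPL: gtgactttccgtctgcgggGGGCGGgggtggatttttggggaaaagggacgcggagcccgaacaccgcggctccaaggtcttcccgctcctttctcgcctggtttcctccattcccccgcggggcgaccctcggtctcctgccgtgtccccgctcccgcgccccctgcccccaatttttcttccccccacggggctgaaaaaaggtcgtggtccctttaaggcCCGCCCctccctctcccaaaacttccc
HNRNPK: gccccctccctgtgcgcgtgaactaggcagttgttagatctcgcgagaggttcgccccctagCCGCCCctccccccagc

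The printed stretches of HNRNPDL and HNRNPL hold 2 GC boxes each, and those of HNRNPD and HNRNPK hold 1 each. RefSeq windows of 300 bases, 250 before and 50 after a start, were present for 9 of the 10 members (15 windows). The GC box was found in windows of 7 of these 9 members (9 of the 15 windows), and in 45.0% of all 35116 windows of the reference. The E-box CACGTG, which can be seen in lower case near the end of the HNRNPD stretch, is its own reverse complement. It was found in windows of 3 members, HNRNPD, HNRNPDL and HNRNPM (4 of the 15 windows), and in 7.26% of all windows. Windows of 7 members (8 of the 15 windows) held CCAAT or its reverse complement ATTGG, against 34.6% of all windows. Windows of HNRNPC and HNRNPD (2 of the 15) held TATAAA or TTTATA, against 11.5%. A match is a description of the letters, the motifs were chosen after the windows had been looked at, and a gene with several windows has more chances of a match.

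With CPI-455, 5 of the 10 hnRNP genes rose and 2 fell. HNRNPDL, HNRNPD and HNRNPL rose by more than 2-fold, HNRNPA1 and HNRNPA2B1 rose by less, and HNRNPK and HNRNPU fell by less than 2-fold. HNRNPC, HNRNPM and HNRNPH1 did not pass the threshold, an adjusted p below 0.05 (quasi-likelihood test of edgeR, adjusted by Benjamini-Hochberg over all genes tested). Changes were common in these libraries: 29.8% of all genes tested were higher and 32.8% lower at that threshold, and 21.0% were higher and 21.3% lower when a 2-fold change was also asked for. In either direction, 62.6% of all genes passed, and 42.4% did so at 2-fold, beside 7 and 3 of the 10 members. At 2-fold, 3 of the 10 members were higher and 0 lower. The latter count was also 0 at an unadjusted p below 0.05 and in DESeq2, but 1 (HNRNPK) with scaling by library totals, with no filter on low counts and without vehicle replicate 1. After removal from each library of a trend with the length and GC content of the exons, 7 members were higher, 4 of them at 2-fold, and 1 was lower. In that fit 5535 of all 17600 genes tested were higher, 3617 of them at 2-fold, and 5224 were lower. The CPM of the groups did not overlap for 9 of the 10 members, HNRNPC being the exception, against 81.9% of all genes tested. The median log2 fold change (CPI-455 over vehicle, positive where CPI-455 was higher) was 0.12 over the 10 members and −0.04 over all genes tested. The members' median was not stable: it was −0.066 with library totals, −0.029 with no filter, 0.30 with upper-quartile scaling, 0.64 with the length and GC trend removed and 0.010 without CPI-455 replicate 2.

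**Figure D1:**
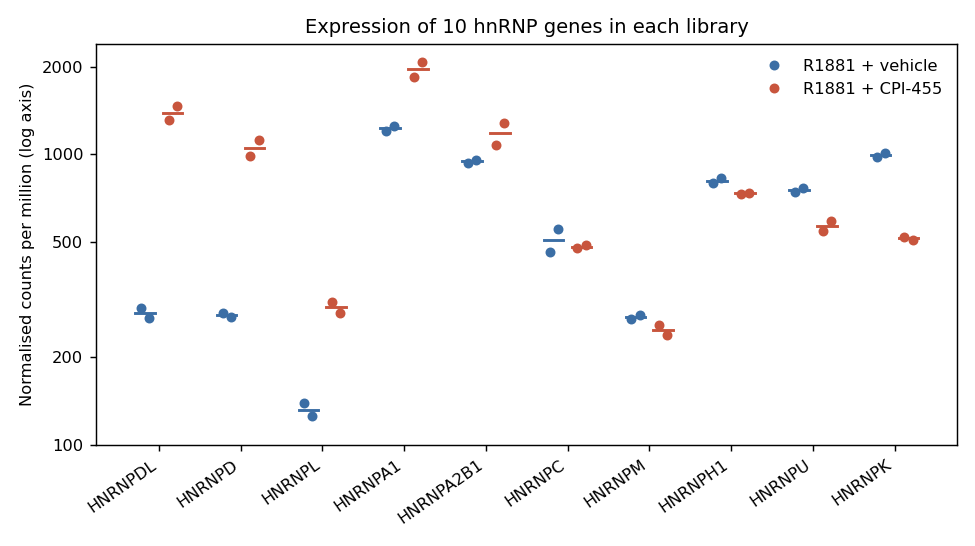
CPM on a log axis for the 10 hnRNP genes, ordered from the highest to the lowest fold change, with 1 point per library and a line at the mean of each group's 2 libraries. The CPI-455 points of HNRNPDL, HNRNPD and HNRNPL lie more than 2-fold above their vehicle points, those of HNRNPK lie 1.94-fold below theirs, and those of HNRNPC fall between its vehicle points.

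The D family genes HNRNPDL and HNRNPD had the largest rises of the 10. HNRNPDL, which encodes an hnRNP D-like protein that binds AU-rich RNA and shuttles between nucleus and cytoplasm, is ENSG00000152795, on the reverse strand of chromosome 4 from 82422564 to 82430408 (GRCh38, as are all positions of genes here). It was at 294.6 and 272.2 CPM in the vehicle libraries and at 1308 and 1462 CPM in the CPI-455 libraries. The groups lay far apart, and both CPI-455 libraries held more raw counts of the gene (11633 and 7373) than the deeper vehicle libraries did (6222 and 5944). The log2 fold change was 2.29 (SE 0.11, 95% interval 2.03 to 2.55, edgeR adjusted p = 7.77e-07), a 4.89-fold higher level.

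HNRNPD (ENSG00000138668) encodes AUF1, which binds AU-rich elements in the mRNAs of cytokines and growth regulators and sets how fast they decay. The gene spans 82352498 to 82374503 on the same strand of chromosome 4. Its level was 283.8 and 275.8 CPM with vehicle and 985.8 and 1116 CPM with CPI-455, again without overlap. The log2 fold change was 1.91 (SE 0.11, 95% interval 1.66 to 2.16, edgeR adjusted p = 1.48e-06), or 3.76-fold. HNRNPDL and HNRNPD thus had about the same CPM with vehicle, 283.4 ± 15.8 and 279.8 ± 5.65 (SD, n = 2), and both stood above 900 CPM in each CPI-455 library. Per length of exon HNRNPDL was the higher of the pair. The ratio of its per-length counts to those of HNRNPD was 1.32 and 1.26 in the vehicle libraries and 1.69 and 1.67 in the CPI-455 libraries.

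The paralog HNRNPAB, which encodes a protein that binds single-stranded nucleic acid and is known as a partner of an mRNA-editing enzyme, moved the other way. It was at 467.9 and 464.5 CPM with vehicle and at 270.5 and 247.9 CPM with CPI-455 (log2 fold change −0.85, SE 0.11, edgeR adjusted p = 1.15e-04). The ratio of per-length counts of HNRNPD to HNRNPAB was 0.188 and 0.184 in the vehicle libraries and 1.13 and 1.39 in the CPI-455 libraries. HNRNPAB was therefore the more abundant per length of the pair with vehicle and the less abundant with CPI-455, in both libraries of each group.

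HNRNPD and HNRNPDL are neighbours, 48060 bases apart. The genes around them were looked at after the values of the pair had been seen. Of the genes annotated between them, IGBP1P4 and SNORD42 had 0 counts in all libraries. ENOPH1, which encodes an enzyme of methionine salvage, starts 153 bases from the start of HNRNPDL on the opposite strand, and its log2 fold change was −0.28 (SE 0.15, edgeR adjusted p = 0.131), from 53.7 ± 2.95 CPM with vehicle to 44.6 ± 5.35 CPM with CPI-455 (SD, n = 2). ENOPH1 was called lower with library totals (−0.47) and no filter (−0.43), and was at −0.10 with upper-quartile scaling. HNRNPD-DT, a divergent transcript that lies between HNRNPD and HNRNPDL and shares 203 of the exon bases of HNRNPD on the other strand, had 19, 4, 25 and 18 counts (both vehicle libraries first), with a log2 fold change of 2.53 (SE 0.77, edgeR adjusted p = 0.0166). That call rests on few counts and was lost without vehicle replicate 2 (1.79) and with the length and GC trend removed (1.80). Fragments that overlapped both HNRNPD and HNRNPD-DT were not counted for either.

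HNRNPL (ENSG00000104824) encodes a protein that binds CA-rich RNA and represses or includes nearby exons. It is on the reverse strand of chromosome 19 from 38836388 to 38852347. Its level was 138.8 and 125.6 CPM with vehicle and 310.8 and 283.4 CPM with CPI-455. The groups lay well apart, and the log2 fold change was 1.17 (SE 0.12, 95% interval 0.91 to 1.43, edgeR adjusted p = 2.47e-05). HNRNPL shares 561 of its exon bases with a gene without a symbol (ENSG00000268083) that had 0 counts in all 4 libraries. Fragments over the shared bases were counted for neither gene. Within 20 kb of HNRNPL, looked at after its values, ECH1 fell by 0.52 on the log2 scale (SE 0.15, edgeR adjusted p = 0.0131). RINL, with at most 52 counts in a library, fell by 1.86 (SE 0.61, edgeR adjusted p = 0.0242).

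HNRNPLL, the paralog of HNRNPL known for the switch of CD45 exons in T cells, was a gene of low level here at 17.4 and 16.7 CPM with vehicle and rose to 37.4 and 50.2 CPM with CPI-455 (log2 fold change 1.35, SE 0.19, edgeR adjusted p = 2.00e-04). The polypyrimidine tract binding proteins, which have the same RNA-recognition motif layout as HNRNPL and repress exons with pyrimidine-rich flanks, did not move as one. PTBP2, the neuronal form, rose (log2 fold change 1.03, SE 0.15, edgeR adjusted p = 2.53e-04). PTBP3 fell by 1.40 on the log2 scale (SE 0.12, edgeR adjusted p = 1.11e-05), and PTBP1, the most abundant of these per length, had a log2 fold change of −0.21 that did not pass (SE 0.13, edgeR adjusted p = 0.188). PTBP1 was called lower with library totals (−0.40) and no filter (−0.36), and was at −0.03 with upper-quartile scaling.

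**Figure D2:**
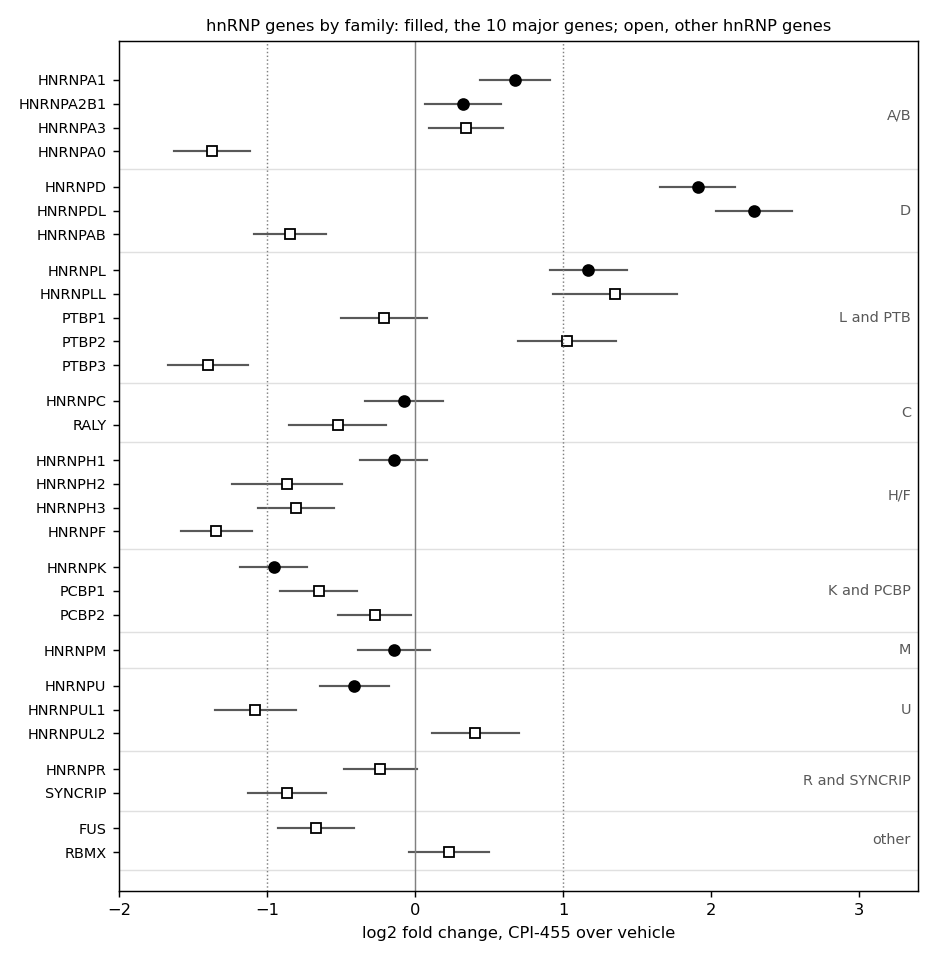
Log2 fold change of CPI-455 over vehicle for 29 hnRNP genes grouped by family, with 95% intervals of the edgeR fit as lines, the 10 major genes as filled circles and 19 other hnRNP genes as open squares; dotted lines mark a 2-fold change. HNRNPD and HNRNPDL lie furthest to the right, at 1.91 and 2.29, and their paralog HNRNPAB lies at −0.85.

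In the A/B family, whose proteins package nascent transcripts and favour skipping of exons and distal 5′ splice sites, the 2 members rose modestly. HNRNPA1 (ENSG00000135486, forward strand of chromosome 12, 54280193 to 54287088) had the highest level of all 10 genes per length. It was at 1204 and 1249 CPM with vehicle and at 1840 and 2079 CPM with CPI-455, without overlap (log2 fold change 0.68, SE 0.11, 95% interval 0.44 to 0.91, edgeR adjusted p = 4.43e-04). With the length and GC trend removed the value was 1.08. HNRNPA1 has many processed pseudogenes, and reads aligning to several places were not counted, so its level is measured less surely than that of a unique gene.

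HNRNPA2B1 (ENSG00000122566, reverse strand of chromosome 7, 26189927 to 26201529) encodes the A2 and B1 isoforms, which bind UAG-containing RNA. It was at 933.9 and 952.3 CPM with vehicle and at 1079 and 1281 CPM with CPI-455. The gap between the groups was smaller than the gap between the CPI-455 libraries. The log2 fold change was 0.32 (SE 0.11, 95% interval 0.07 to 0.58, edgeR adjusted p = 0.0322), and the call was lost when any of 3 of the 4 libraries was left out, with values of 0.15 without CPI-455 replicate 2, 0.29 without vehicle replicate 1 and 0.31 without vehicle replicate 2. The call was also lost with scaling by library totals (0.13) and with no filter on low counts (0.17), while the value was 0.50 with upper-quartile scaling and 0.82 with the length and GC trend removed, both called. HNRNPA2B1 shares 368 of its exon bases (4.88%) with CBX3, a gene on the other strand (3998 and 4300 counts in the vehicle libraries, 2362 and 1693 in the CPI-455 libraries).

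Among the other A/B genes, HNRNPA3 was at 350.2 and 369.7 CPM with vehicle and 430.1 and 483.8 CPM with CPI-455 (log2 fold change 0.34, SE 0.11, edgeR adjusted p = 0.0218). Like that of HNRNPA2B1, this call was lost with library totals (0.15), with no filter (0.19), without CPI-455 replicate 2 (0.21) and without either vehicle library (0.28 and 0.36). The intronless HNRNPA0 fell from 376.3 and 348.4 CPM to 133.6 and 146.3 CPM, or by 1.37 on the log2 scale (SE 0.11, edgeR adjusted p = 9.09e-06). Of these 4 genes, HNRNPA1 and HNRNPA0 are the ones whose calls did not depend on a single library.

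HNRNPK had the lowest log2 fold change of the 10 members. Its protein binds C-rich RNA and DNA through KH domains and acts in transcription, splicing and translation, and it is known to bind androgen receptor mRNA. The gene (ENSG00000165119) spans 83968083 to 83980616 on the reverse strand of chromosome 9. It was at 977.9 and 1009.8 CPM with vehicle and at 517.7 and 508.2 CPM with CPI-455. The libraries of each group lay close together, and the log2 fold change was −0.95 (SE 0.10, 95% interval −1.18 to −0.73, edgeR adjusted p = 3.67e-05), a 1.94-fold lower level.

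Near HNRNPK, again looked at after its values, RMI1 starts 94 bases away on the opposite strand and encodes a partner of a DNA topoisomerase and helicase complex. Its counts were 1614 and 1886 in the vehicle libraries, and 164 and 44 in the CPI-455 libraries (log2 fold change −2.51, SE 0.26, edgeR adjusted p = 3.20e-05). C9orf64, on the strand of HNRNPK, fell by 1.73 on the log2 scale (SE 0.16, edgeR adjusted p = 1.63e-05). HNRNPK-AS1, which shares 309 exon bases with HNRNPK on the other strand, had 14 and 9 counts in the vehicle libraries and 0 in both CPI-455 libraries. ENSG00000207603 (83969748 to 83969857, same strand) shares all its 110 bases with exons of HNRNPK. It had 0 counts in all 4, which follows from the counting, as fragments over more than 1 gene were left out. The related poly(C)-binding gene PCBP1 fell by 0.65 on the log2 scale (SE 0.12, edgeR adjusted p = 9.23e-04), and PCBP2 was at −0.27 (SE 0.11, edgeR adjusted p = 0.0515), short of the threshold. PCBP2 was called lower with library totals (−0.46), no filter (−0.43), the likelihood-ratio test (−0.27) and the replicate block (−0.27). It was not called with upper-quartile scaling (−0.10) or with the length and GC trend removed (0.13, edgeR adjusted p = 0.244).

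HNRNPU (ENSG00000153187, reverse strand of chromosome 1, 244851166 to 244864542) encodes scaffold attachment factor A, which ties RNA to chromatin and nuclear structure. It was at 739.7 and 763.1 CPM with vehicle and at 542.3 and 587.1 CPM with CPI-455. The groups did not overlap, and the log2 fold change was −0.41 (SE 0.10, 95% interval −0.65 to −0.18, edgeR adjusted p = 0.00674). This call depended on the processing: with upper-quartile scaling the value was −0.24 (edgeR adjusted p = 0.075), and with the length and GC trend removed it turned to 0.10 (edgeR adjusted p = 0.304). Leaving out vehicle replicate 2 gave −0.41 with an edgeR adjusted p of 0.0508. ENSG00000277877 shares 332 of the exon bases of HNRNPU and had 40, 38, 9 and 22 counts, vehicle libraries first.

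The U-like genes differed from each other. HNRNPUL1 fell by 1.08 on the log2 scale (444.7 and 477.4 CPM with vehicle, 236.3 and 199.1 CPM with CPI-455, edgeR adjusted p = 5.28e-05). HNRNPUL2 was higher by 0.41 (52.6 and 48.9 CPM with vehicle, 66.1 and 68.6 CPM with CPI-455, edgeR adjusted p = 0.0219), a call lost with library totals (0.22), with no filter (0.25) and without either vehicle library (0.44 and 0.33).

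HNRNPH1 (ENSG00000169045, reverse strand of chromosome 5, 179614178 to 179634784) encodes a protein that binds runs of G in RNA and takes part in splicing of many transcripts. It was at 796.5 and 824.9 CPM with vehicle and at 730.4 and 735.1 CPM with CPI-455. Both CPI-455 values were lower, but the log2 fold change of −0.15 (SE 0.10, 95% interval −0.37 to 0.08) did not pass (edgeR adjusted p = 0.228). The sign and the call were not stable: the value was −0.34 with library totals (edgeR adjusted p = 0.0118), 0.030 with upper-quartile scaling and 0.29 with the length and GC trend removed (edgeR adjusted p = 0.015).

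All the other H/F genes fell. HNRNPF, which encodes a protein with the same G-run binding, fell from 476.7 and 482.6 CPM to 191.5 and 186.8 CPM, or by 1.34 on the log2 scale (SE 0.11, edgeR adjusted p = 6.44e-06). HNRNPH2 fell by 0.87 on the log2 scale (SE 0.17, edgeR adjusted p = 0.00147), with 117.5 and 116.8 CPM with vehicle and 53.4 and 76.5 CPM with CPI-455. HNRNPH3 fell by 0.81 on the log2 scale (SE 0.11, edgeR adjusted p = 2.25e-04). With the length and GC trend removed HNRNPH3 was at −0.34, still called (edgeR adjusted p = 0.00798). Leaving out 1 library, HNRNPH2 ranged from −1.18 to −0.63. The ratio of per-length counts of HNRNPH1 to HNRNPF was 0.573 and 0.587 in the vehicle libraries and 1.31 and 1.35 in the CPI-455 libraries. The order of this pair thus changed per length only. By CPM HNRNPH1 was above HNRNPF in every library, with 9480 annotated exon bases against 3253.

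HNRNPC (ENSG00000092199, reverse strand of chromosome 14, 21209136 to 21269494) encodes the C1 and C2 proteins, which bind runs of U and keep cryptic exons out of mRNA. It was at 461 and 550.3 CPM with vehicle and at 476 and 485.4 CPM with CPI-455. The vehicle libraries spanned both CPI-455 values, and the log2 fold change was −0.07 (SE 0.12, 95% interval −0.34 to 0.19, edgeR adjusted p = 0.61). It was 0.10 with upper-quartile scaling, 0.037 without vehicle replicate 2 and 0.46 with the length and GC trend removed (edgeR adjusted p = 0.00356). Its paralog RALY fell by 0.52 on the log2 scale (107.8 and 119.4 CPM with vehicle, 88.6 and 68.4 CPM with CPI-455, edgeR adjusted p = 0.0114), a call lost with upper-quartile scaling (−0.35), with the length and GC trend removed (−0.32) and without vehicle replicate 2 (−0.48).

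HNRNPM (ENSG00000099783, forward strand of chromosome 19, 8444767 to 8489114), which encodes a protein that binds GU-rich RNA and acts in splicing in epithelial and mesenchymal cells, was at 269.7 and 280.2 CPM with vehicle and at 258.5 and 238.9 CPM with CPI-455. Its log2 fold change, −0.14, did not pass (SE 0.11, 95% interval −0.39 to 0.10, edgeR adjusted p = 0.273). HNRNPM shares 36 exon bases with ELAVL1 on the other strand, which encodes the AU-rich element binding protein HuR (4225 and 4457 counts in the vehicle libraries, 887 and 579 in the CPI-455 libraries). ENSG00000279827, which shares 345 of its exon bases, had at most 1 count in a library. With library totals HNRNPM was at −0.33 on the log2 scale (edgeR adjusted p = 0.0196), with upper-quartile scaling at 0.032 and at 0.016 with the length and GC trend removed. The 95% intervals given for HNRNPC, HNRNPM and HNRNPH1 leave room for changes of up to 0.39 on the log2 scale. They hold for that fit only, as HNRNPC was at 0.46 with the length and GC trend removed. Equal levels were therefore not shown.

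Levels of different genes were compared per length of exon, as RPKM (CPM per kilobase of exon). With vehicle the order was HNRNPA1 (240.8 ± 6.17 RPKM, SD, n = 2), HNRNPK (194.3 ± 4.41), HNRNPA2B1 (125.1 ± 1.73), HNRNPU (88.5 ± 1.94), HNRNPH1 (85.5 ± 2.12), HNRNPC (69.2 ± 8.63), HNRNPDL (51.7 ± 2.89), HNRNPM (49.0 ± 1.32), HNRNPD (40.1 ± 0.81) and HNRNPL (19.4 ± 1.37). HNRNPDL and HNRNPM were the only neighbours in this order whose libraries overlapped. With CPI-455 the order was HNRNPA1 (384.7 ± 33.3 RPKM), HNRNPDL (252.9 ± 19.9), HNRNPA2B1 (156.4 ± 18.9), HNRNPD (150.5 ± 13.2), HNRNPK (100.3 ± 1.32), HNRNPH1 (77.3 ± 0.35), HNRNPU (66.5 ± 3.74), HNRNPC (65.8 ± 0.91), HNRNPM (44.3 ± 2.47) and HNRNPL (43.6 ± 2.85). The libraries of HNRNPA2B1 and HNRNPD overlapped, as did those of HNRNPU and HNRNPC, and of HNRNPM and HNRNPL. HNRNPA1 was highest in both groups and HNRNPL last in both, though close to HNRNPM with CPI-455, while HNRNPDL went from the seventh place to the second and HNRNPK from the second to the fifth. RPKM was computed on all annotated exon bases of a gene, which are not all part of 1 transcript.

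**Figure D3:**
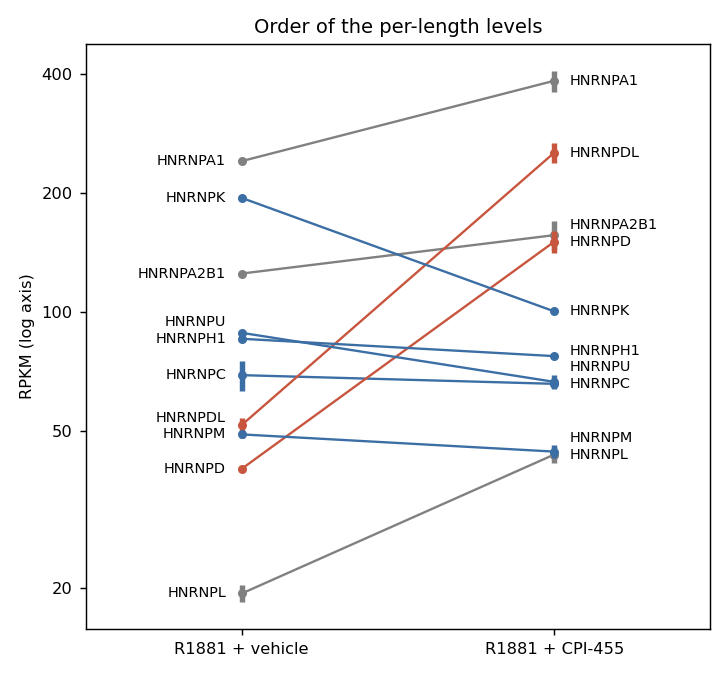
RPKM of the 10 hnRNP genes on a log axis with vehicle (left) and with CPI-455 (right); points are means of 2 libraries and thick bars join the lower and the higher library. Red lines mark genes that moved up in the order, blue lines those that moved down and grey lines those that kept their place; the lines of HNRNPDL and HNRNPD cross that of HNRNPK.

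The make-up of the 10 genes differed between the groups. HNRNPD and HNRNPDL together took 9.96% and 9.11% of the summed per-length counts of the 10 genes in the vehicle libraries and 29.6% and 30.5% in the CPI-455 libraries. HNRNPK went from 20.2% and 20.2% to 7.89% and 7.09%. HNRNPA1 took 24.9% and 25.1% in the vehicle libraries, and 28.1% and 29.1% in the CPI-455 libraries. The 10 genes summed to 6100.3 and 6303 CPM with vehicle and to 8048 and 8776 CPM with CPI-455, a ratio of the group means of 1.36. Without HNRNPD and HNRNPDL the sums were 5522 and 5755 CPM against 5754 and 6198 CPM, a ratio of 1.06. As shares of the raw library totals the ratios were 1.19 for the 10 genes and 0.929 for the 8, so the direction of the latter turned with the scaling.

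**Figure D4:**
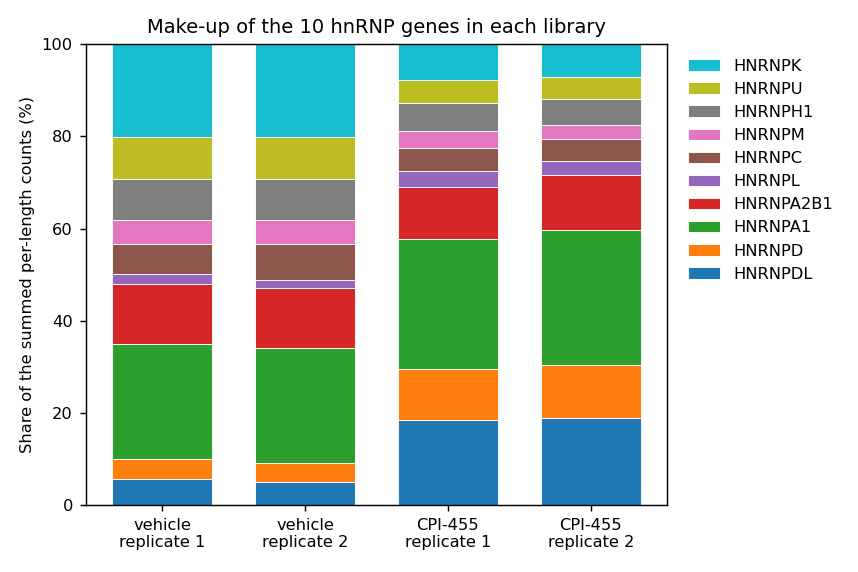
Share (%) of each of the 10 hnRNP genes in their summed per-length counts, as stacked bars for the 4 libraries. The shares of HNRNPDL and HNRNPD at the bottom widen from 9.96% and 9.11% in the vehicle bars to 29.6% and 30.5% in the CPI-455 bars, and that of HNRNPK at the top narrows from 20.2% to 7.89% and 7.09%.

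Among the 19 other hnRNP genes on the list more fell than rose. At an adjusted p below 0.05, 4 were higher and 11 lower (against 29.8% and 32.8% of all genes tested), with 2 higher under library totals, no filter or glmTreat. Under these settings 4457 of 17600, 4598 of 33392 and 3675 of 17600 genes were higher. At 2-fold 2 were higher (HNRNPLL and PTBP2) and 4 were lower (PTBP3, HNRNPA0, HNRNPF and HNRNPUL1), against 21.0% and 21.3% of all genes tested. Which genes passed 2-fold depended on the setting. With the length and GC trend removed, PTBP3 (−0.86), HNRNPA0 (−0.86) and HNRNPUL1 (−0.93) did not reach it, while HNRNPAB (−1.13) and PCBP1 (−1.08) did. PTBP2 did not reach it with library totals (0.84) or no filter (0.87). The median log2 fold change of the 19 genes was −0.65, beside −0.04 for all genes, and their summed level was 5255 and 5437 CPM with vehicle and 3702 and 3698 CPM with CPI-455, a ratio of 0.692. Over all 29 hnRNP genes, HNRNPD and HNRNPDL took 4.61% and 4.24% of the per-length counts in the vehicle libraries, and 18.9% and 20.1% in the CPI-455 libraries. Of 12 SR protein genes (SRSF1 to SRSF12), which often act on the same exons as hnRNPs, 5 were higher and 3 lower, with 4 higher and 1 lower at 2-fold and a median log2 fold change of 0.22.

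The rises of HNRNPDL, HNRNPD and HNRNPL and the fall of HNRNPK passed the threshold under each of the 16 other settings tried. Over these settings the log2 fold change ranged from 2.10 to 2.70 for HNRNPDL, from 1.72 to 2.42 for HNRNPD, from 0.98 to 1.35 for HNRNPL and from −1.14 to −0.50 for HNRNPK. Removal of the length and GC trend moved all 10 members upward, and it gave the upper end of these 4 ranges. The exons of 7 members held 38.6% to 43.1% GC, and those of HNRNPH1, HNRNPM and HNRNPL held 44.5%, 52.9% and 53.4%.

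**Figure D5:**
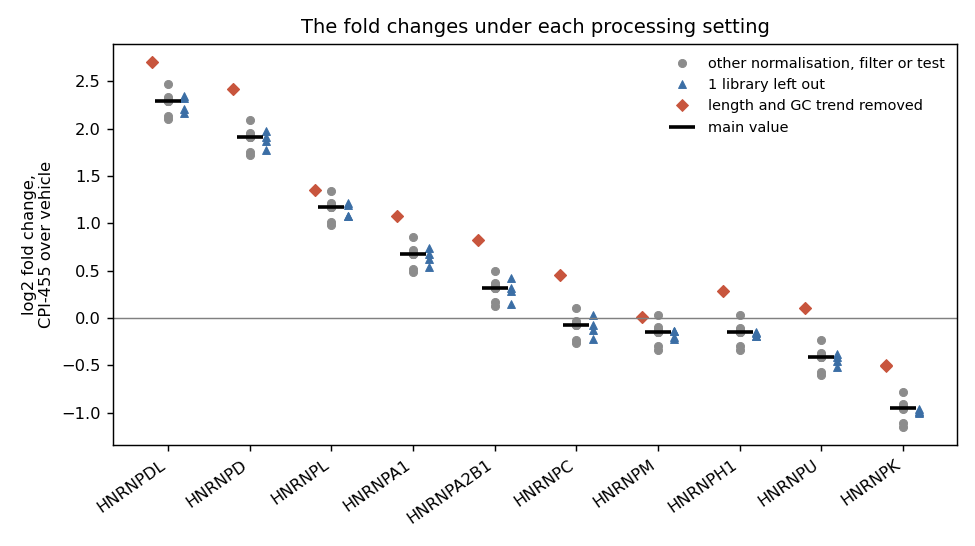
Log2 fold change of CPI-455 over vehicle for the 10 hnRNP genes, with a black bar for the reported value, grey circles for other normalisations, filters and tests, blue triangles with 1 library left out and red diamonds with the length and GC trend removed. All points of HNRNPDL, HNRNPD and HNRNPL lie above 0.9 and all of HNRNPK below −0.4, while those of HNRNPC, HNRNPM, HNRNPH1 and HNRNPU lie on both sides of 0.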

How the data were processed

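RNA-seq of 4 LNCaP libraries was used, grouped by their labels. The authors trimmed reads with Trim Galore, aligned them with STAR to GRCh38 and counted fragments per gene with featureCounts 1.5.0-p1 with the Ensembl annotation (release 83). For each of 60675 genes the deposited files give raw counts, without normalisation. Per the file headers, counting ignored strand and left out multi-mapping fragments and those over more than 1 gene. 1 count was worth 0.0458 to 0.198 CPM (TMM-scaled), and the floor of 3 counts 0.137 to 0.595 CPM; these cover counting error only. Replicates differed by more than sampling noise (chi-square per degree of freedom 5.77 and 8.63).

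Symbols were matched for 56558 genes from GENCODE release 44. Counts were fitted across all genes with edgeR 4.0.16 in R 4.3.3 (TMM, filterByExpr at 10 counts, glmQLFit and glmQLFTest, no covariates, Benjamini-Hochberg), which left 17600 genes. Calls used an adjusted p below 0.05, alone or with 2-fold. CPM used TMM-scaled library sizes. The scripts were tested on simulated data in which few genes changed. Unlike these data, so that test does not cover scaling or calls where most genes change. Alternatives were RLE, upper-quartile and total-count scaling, TMM without MALAT1 and mitochondrial genes, no filter or 10 counts in every library, DESeq2 1.42.0, the likelihood-ratio test, glmTreat at 1.5-fold, a replicate block, removal of a length and GC trend (mgcv 1.9.3), and leaving out each library. Promoter windows are RefSeq's on GRCh38.p14.

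The members and lists were chosen with earlier results of these data known. The named genes are the 10 members, their paralogs, other listed hnRNP genes past 2-fold, genes sharing exon bases with a member, and pseudogenes reaching 10 counts in a library of each group; PCBP1, PCBP2, PTBP1, the neighbouring genes and the markers were named after their values were seen.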

Additional observations from a re-analysis of the deposited data

How the results depend on the processing

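The 2 libraries per group and the smaller CPI-455 libraries limit what can be told: with 1 library left out, the lone library of its group was assumed to vary like the other. HNRNPDL, HNRNPD, HNRNPL and HNRNPK kept their direction and call under all 16 alternatives, and HNRNPA1 under all but glmTreat against 1.5-fold (0.68, edgeR adjusted p = 0.145). For the others the cause of a change was not tested.

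Upper-quartile scaling moved the median log2 fold change of all genes by 0.17 and library totals by −0.19. With no filter the median was taken over 33392 genes in place of 17600 and stood 0.37 lower, so it is no measure of a shift in scale. With upper-quartile scaling, HNRNPH1 was at 0.030, HNRNPC at 0.10, HNRNPM at 0.032 and HNRNPU at −0.24; relative to all genes these were −0.11, −0.03, −0.10 and −0.37. The median of the members was 0.30, with 1 lower, beside 4935 of all 17600 genes lower. With library totals, HNRNPH1 (−0.34) and HNRNPM (−0.33) passed, HNRNPA2B1 (0.13) did not, the median was −0.066, and 4 members were lower, 1 of them at 2-fold. Of the other hnRNP genes, 2 were then higher (1 at 2-fold) and 7 lower at 2-fold, and 5 SR genes were lower. Library totals gave 4457 of all 17600 genes higher (3125 at 2-fold) and 6639 lower (4569 at 2-fold). With no filter, HNRNPH1 was at −0.30 and called, HNRNPA2B1 at 0.17, the median at −0.029 and 1 member lower at 2-fold; the counts of other hnRNP and SR genes were again 2, 1, 7 and 5, and 1 pseudogene was lower (1 at 2-fold). Without the filter 4598 of all 33392 genes were higher (3311 at 2-fold) and 6490 lower (4533 at 2-fold). Under glmTreat HNRNPU (−0.41) and HNRNPA2B1 (0.32) did not pass, leaving 3 members higher, 1 lower and 2 other hnRNP genes higher. The same test gave 3675 of all 17600 genes higher and 3943 lower.

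With the length and GC trend removed, HNRNPU was at 0.10, HNRNPH1 at 0.29, HNRNPC at 0.46 and HNRNPM at 0.016, the median was 0.64, 7 members were higher (4 at 2-fold, HNRNPA1 at 1.08), 1 member and 1 pseudogene were lower and 8 SR genes higher; with the replicate block added, the values were 0.10, 0.29, 0.46 and 0.015, the median 0.64, 1 member was lower and 8 SR genes were higher. Among all 17600 genes, 5535 were higher (3617 at 2-fold) and 5224 lower with the trend removed. With the block added, 5204 were higher and 5179 lower. SR genes lower at 2-fold numbered 0 in both fits, and also with RLE, upper-quartile scaling, 10 counts in every library and DESeq2 (the gene was SRSF8, named after its value was seen). The labels number replicates 1 and 2 in both groups, but deviations of same-numbered libraries correlated at 0.0496, so the numbers were not taken to pair them. The replicate block alone changed no member's call and left 5 members higher and 2 lower, beside 4984 and 5787 of all 17600 genes.

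With 1 library left out, HNRNPA2B1 ranged from 0.15 to 0.42, HNRNPU from −0.51 to −0.37 (lost without vehicle replicate 2) and HNRNPC from −0.22 to 0.037 (positive without vehicle replicate 2). The median of the members ranged from 0.010 (without CPI-455 replicate 2) to 0.18. From 1 to 2 members were lower, and 0 to 1 at 2-fold, HNRNPK passing 2-fold without vehicle replicate 1. From 2 to 5 other hnRNP genes were higher (1 to 2 at 2-fold), 0 to 2 pseudogenes were lower (0 to 2 at 2-fold), 0 to 1 SR genes were lower at 2-fold, and 3236 to 6123 of all genes were higher, against 5243 with all libraries; the count of all genes was 3397 without vehicle replicate 1 and 3236 without vehicle replicate 2.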

Other observations

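Of 123 pseudogenes of hnRNP genes, 59 had 0 counts in all 4 libraries and 8 had enough to be tested. In edgeR's quasi-likelihood test 2 of the 8 were higher at an adjusted p below 0.05 (against 29.8% of all genes tested), and both are processed copies of HNRNPA1. HNRNPA1P16, on the forward strand of chromosome 17 from 2306761 to 2307715, was counted 18 and 15 times in the vehicle libraries, and 319 and 126 times in the CPI-455 libraries, or 0.77 ± 0.12 and 30.4 ± 7.7 CPM (SD, n = 2). Its log2 fold change was 5.30 (SE 0.32, edgeR adjusted p = 1.69e-06). The copy lies within the span of SRR, a serine racemase gene on the same strand, whose own log2 fold change was 0.06 (SE 0.18, edgeR adjusted p = 0.776). On the other strand nearby, SMG6 fell by 1.77 on the log2 scale (SE 0.16, edgeR adjusted p = 1.54e-05). TSR1, also there, was at −0.07 (SE 0.12, edgeR adjusted p = 0.659).

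HNRNPA1P10, on the reverse strand of chromosome 19 from 11666069 to 11667030, was counted 53 and 54 times in the vehicle libraries, and 108 and 67 times in the CPI-455 libraries, a log2 fold change of 2.34 (SE 0.30, edgeR adjusted p = 1.31e-04). Fragments aligning to several places were not counted, and reads of near-identical copies can still be placed in error, so both values are uncertain. The change of HNRNPA1 itself was 0.68, and whether any of these fragments came from HNRNPA1 was not tested. HNRNPA1P10 lies within the span of ENSG00000197332, a gene without a symbol on the other strand (log2 fold change 1.03, SE 0.41, edgeR adjusted p = 0.0504). On that strand nearby, ZNF887P was higher (log2 fold change 1.89, SE 0.38, edgeR adjusted p = 0.00194). ZNF833P, also there, had 2, 2, 0 and 0 counts, vehicle libraries first. Whether the rise of HNRNPA1P10 is part of a change of its surroundings was not tested. SRR, SMG6, TSR1 and these genes were looked at after the values of the copies had been seen.

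Of the other pseudogenes that reached 10 counts in a library of each group, none passed the threshold. HNRNPCP2 had 130, 169, 57 and 30 counts, vehicle libraries first (log2 fold change −0.16, SE 0.30, edgeR adjusted p = 0.661). HNRNPA1P49 was at 0.53 (edgeR adjusted p = 0.533), HNRNPA3P9 at 0.88 (edgeR adjusted p = 0.434) and HNRNPCP7 at 1.04 (edgeR adjusted p = 0.253), each with at most 24 counts in a library.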
